A study of Mus musculus with 8 samples.

Results

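The mitochondrial ribosome of mouse blastocysts was examined in 8 RNA-seq libraries of 3 Isca2 genotypes at embryonic day 4.5, when the embryo is about to implant. The members were the protein-coding genes whose GENCODE symbol on the GRCm38 build begins with Mrpl or Mrps followed by a digit. This rule gave 78 of the 55471 genes in the files, 49 with a large-subunit symbol and 29 with a small-subunit symbol, and it used no measured value. All 78 passed the filter on low counts and were tested among 13953 genes. The genotypes were Isca2 G77S/G77S (G77S, 3 libraries, homozygous for a glycine-to-serine substitution), Isca2 -/- (KO, 2 libraries) and wild type (WT, 3 libraries). ISCA2 is a mitochondrial carrier protein that helps to build iron-sulfur clusters, and the series concerns iron metabolism and a contact of ISCA2 with TET enzymes around implantation. Per the labels' protocols, superovulated Isca2+/- females were mated with Isca2+/- males and the embryos were kept in culture. The mothers therefore carried an intact Isca2 allele, and the cross that gave the G77S embryos is not stated. The labels give neither the number of embryos per library nor a sex, litter, day or batch, so a p-value here measures how the deposited libraries vary, and part of that may be technical. RNA was read from full-length amplified cDNA by transposase-made libraries without a stated strand, so the reads of genes with overlapping exons, 33 of the 78 members, cannot be told apart by strand.

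Mitochondria keep a ribosome of their own that makes the few hydrophobic respiratory chain subunits encoded by mitochondrial DNA. Its RNAs come from the mitochondrial genome, whereas every one of its proteins is encoded in the nucleus, made in the cytosol and imported. Some of the proteins descend from those of bacterial ribosomes, and the others were added during the evolution of mitochondria. The small subunit decodes the message, and the large subunit forms the peptide bond and holds the tunnel through which the new chain leaves. In human structures, a few of these proteins bind iron-sulfur clusters. By family name, 30 of the large-subunit and 16 of the small-subunit members had a bacterial homologue, and 19 and 13 were specific to mitochondria. The members lay on 17 chromosomes with 11 of them on chromosome 11, and 0 lay on chromosome 12, which holds Isca2.

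Only 4 members passed an adjusted p of 0.05 in any comparison of the main edgeR fit of the counts, all of the large subunit: Mrpl17, Mrpl41, Mrpl23 and Mrpl1. DESeq2 and some other settings of the counts called further members, some of the small subunit, as given below. The promoters of the 4 are shown because these genes carry the differences described below. Each runs from 250 bases before to 50 bases after the RefSeq start on GRCm38.p6, is written 5′ to 3′ on the strand of the gene, and has in capitals any match to 4 motifs searched on both strands. The motifs were CCGGAAG (ETS factors), GCGCATGC (part of the NRF1 site), AAGATGGCG (YY1) and CACGTG (the E-box), none of which contains another. Mrpl17 lies at chr7:105811038-105811337 on the minus strand, Mrpl41 at chr2:24975049-24975348 on the minus strand, Mrpl23 at chr7:142532782-142533081 on the plus strand and Mrpl1 at chr5:96209865-96210164 on the plus strand.
Mrpl17: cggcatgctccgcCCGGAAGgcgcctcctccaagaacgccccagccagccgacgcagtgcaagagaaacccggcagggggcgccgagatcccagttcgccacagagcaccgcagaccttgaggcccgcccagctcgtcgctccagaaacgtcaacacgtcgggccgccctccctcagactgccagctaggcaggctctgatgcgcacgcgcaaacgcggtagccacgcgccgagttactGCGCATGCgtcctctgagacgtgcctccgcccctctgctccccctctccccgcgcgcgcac
Mrpl41: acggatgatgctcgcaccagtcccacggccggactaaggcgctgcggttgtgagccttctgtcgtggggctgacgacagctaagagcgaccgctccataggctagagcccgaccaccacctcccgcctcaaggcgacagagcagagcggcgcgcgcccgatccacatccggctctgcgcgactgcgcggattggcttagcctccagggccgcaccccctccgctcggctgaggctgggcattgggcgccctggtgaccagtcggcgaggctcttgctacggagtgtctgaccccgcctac
Mrpl23: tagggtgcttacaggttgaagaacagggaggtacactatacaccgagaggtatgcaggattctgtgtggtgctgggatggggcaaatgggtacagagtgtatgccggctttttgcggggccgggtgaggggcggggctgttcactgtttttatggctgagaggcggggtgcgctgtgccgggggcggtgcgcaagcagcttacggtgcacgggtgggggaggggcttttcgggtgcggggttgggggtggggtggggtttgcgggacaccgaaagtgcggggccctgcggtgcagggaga
Mrpl1: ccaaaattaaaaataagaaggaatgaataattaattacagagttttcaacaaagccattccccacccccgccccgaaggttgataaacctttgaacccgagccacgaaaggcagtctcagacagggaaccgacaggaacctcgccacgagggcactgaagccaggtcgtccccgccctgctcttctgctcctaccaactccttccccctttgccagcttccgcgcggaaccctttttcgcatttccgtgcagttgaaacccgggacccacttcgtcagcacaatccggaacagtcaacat
Of these 4, Mrpl17 alone held a match, an ETS word that began 237 bases before the start and an NRF1 word that began 11 bases before it. The other 3 did not have these letters in this window. For Mrpl1 and Mrpl23 the window begins after the GENCODE start of the gene (chr5:96209493 and chr7:142532686). The bases before those starts were not searched. RefSeq promoters were matched for 69 of the 78 members. The ETS word was found in 14 of 43 large-subunit promoters (32.6%) and 10 of 26 small-subunit promoters (38.5%), beside 2083 of 17491 protein-coding promoters of the same length (11.9%). The NRF1 word was found in 7 large-subunit promoters (16.3%) and 1 small-subunit promoter (3.85%), beside 3.60% of all. The YY1 word stood in 4 large-subunit (9.30%) and 4 small-subunit promoters (15.4%), beside 1.92% of all. E-box words were in 4 large-subunit promoters (9.30%) and 1 small-subunit promoter (3.85%), beside 7.91% of all. These shares describe letters only, with no test.

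Isca2 stood at 89.1, 105 and 133 CPM in the G77S libraries, at 4.84 and 6.20 CPM in the KO libraries and at 86.9, 173 and 154 CPM in the WT libraries. CPM are counts divided by the library total and a TMM factor, on 1 scale for all libraries. The log2 fold change was -4.64 for KO over WT (SE 0.41, edgeR quasi-likelihood adjusted p = 0.00387) and -0.34 for G77S over WT (adjusted p = 0.577). Total expected counts ran from 10323965 to 23842619, and the lowest count of any member in any library was 107, for Mrps5 in WT replicate 2. Fragments averaged 181.5 to 185.1 bases in G77S libraries, against 242.7 to 291.1 bases in KO and WT libraries, as read from the deposited lengths, so the G77S genotype and a possible batch of library preparation cannot be told apart. The summed level of 7 trophectoderm markers was 4740, 3910 and 4540 CPM in G77S, 12800 and 7810 CPM in KO, and 11200, 7270 and 8040 CPM in WT, with none of the 7 at 0 in any library. Of these markers, Krt18 and Elf5 were lower in G77S than in WT (adjusted p = 0.0222 and 0.0475), and Krt18 was lower in G77S than in KO (adjusted p = 0.0120). Krt8 and Krt18 made up most of that sum, and 4 other markers of the list, Cdx2, Gata3, Eomes and Tfap2c, had every G77S library above both KO libraries without passing the test (adjusted p = 0.316, 0.242, 0.323 and 0.137). Summed epiblast markers (6 genes) ran from 173 to 284 CPM in G77S, from 212 to 246 CPM in KO and from 243 to 311 CPM in WT, where 1 or 2 of the 6 were at 0 in each library, and Pou5f1 and Utf1 were higher in G77S than in WT (adjusted p = 0.0104 and 0.0118), as Utf1 was in KO (adjusted p = 0.0295), and Pou5f1 was higher in G77S than in KO (adjusted p = 0.00614). Nanog had 115, 66.9 and 176 CPM in G77S, 53.4 and 27.4 CPM in KO, and 297, 266 and 221 CPM in WT. Every G77S and KO library was thus below WT for Nanog, without passing the test (G77S over WT -1.13, adjusted p = 0.107, and KO over WT -2.69, adjusted p = 0.0529). Pou5f1 was below WT in both KO libraries, also without passing (-0.94, adjusted p = 0.413). Tdgf1, Klf4 and Sox2 went the other way, above WT in every G77S and KO library without passing the test. Tdgf1 had 87.1, 46.0 and 44.2 CPM in G77S, 120 and 158 CPM in KO, and 0.223, 0.199 and 13.3 CPM in WT. Its log2 fold changes were 3.64 for G77S over WT (adjusted p = 0.101) and 4.88 for KO over WT (adjusted p = 0.155). Nanog made up most of the epiblast sum in WT, and Tdgf1 most of it in KO. Summed primitive endoderm markers (6 genes) ran from 563 to 1150 CPM in G77S, from 994 to 1450 CPM in KO and from 1130 to 1460 CPM in WT, with 3 or 4 of the 6 at 0 in each WT library, 1 to 3 in each G77S library and 0 in each KO library. Dab2 made up most of that sum, at 528, 1120 and 994 CPM in G77S against 1430, 1290 and 1110 CPM in WT. Gata6 and Pdgfra were above WT in every G77S and KO library without passing the test (G77S over WT 0.42 and 6.5, adjusted p = 0.472 and 0.0514). Pdgfra was at most 4.69 CPM, and Gata4, Sox17 and Sox7 were at 0 in every WT library. The part of cell make-up in the results below was not tested, and in bulk samples fewer cells of a type and less RNA per cell cannot be told apart. Of 4 cumulus cell markers, 3 were at 0 in every library, and the list summed to at most 13.6 CPM. Blood markers (3 genes) summed to at most 0.884 CPM.

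Levels of different members were compared per transcript length, in TPM. By the mean over all 8 libraries, the large subunit was led by Mrpl42, a mitochondrion-specific protein, at 696, 869 and 932 TPM in G77S, 1130 and 1560 TPM in KO, and 880, 1250 and 1080 TPM in WT. That mean was 1050 TPM. Mrpl33, the homologue of bacterial L33, followed at 564, 690 and 817 TPM in G77S, 578 and 634 TPM in KO, and 557, 642 and 695 TPM in WT. Mrpl23, the homologue of bacterial L23 at the exit of the peptide tunnel, was next with a mean of 587 TPM. The libraries of Mrpl42 and Mrpl33 did not overlap in KO or WT, whereas those of Mrpl33 and Mrpl23 did overlap in WT. In KO the order of these was the other way round, with Mrpl23 at 792 and 1070 TPM, above Mrpl33 in both libraries. At the other end, Mrpl50 averaged 23.0 TPM and Mrpl38 23.3 TPM, both mitochondrion-specific, and their libraries overlapped in G77S and WT but not in KO. The low end differed by genotype: Mrpl19 (11.2, 13.0 and 11.3 TPM) lay below both in every WT library, and in KO Mrpl9 (mean 17.7 TPM) and Mrpl19 (mean 17.8 TPM) had the lowest means. Between its highest and its lowest member, the large subunit spanned 30.7 to 49.0-fold in the G77S libraries, 64.9-fold and 109.9-fold in KO and 78.6 to 96.2-fold in WT.

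In the small subunit the mean over all libraries was led by Mrps14, the homologue of bacterial S14, at 421, 646 and 642 TPM in G77S, 633 and 741 TPM in KO, and 647, 670 and 629 TPM in WT. Mrps18c (mean 462 TPM), a homologue of bacterial S18, and Mrps24 (mean 449 TPM), the homologue of bacterial S3, came next, and their libraries overlapped within each genotype. Mrps14 did not lead in each library: Mrps18b was above it in G77S replicate 1 (526 TPM), and Mrps24 in WT replicate 2 (693 TPM). In G77S the mean of Mrps18b, 481 TPM, was also above those of Mrps18c (452 TPM) and Mrps24 (435 TPM). By the mean over all libraries, the lowest were Mrps5, the homologue of bacterial S5, and Mrps30. Mrps5 stood at 22.1, 28.7 and 19.1 TPM in G77S, 11.9 and 7.13 TPM in KO, and 13.1, 11.2 and 14.7 TPM in WT. Mrps30 averaged 23.2 TPM. Mrps5 and Mrps30 overlapped in G77S but not in KO or WT, where each Mrps30 library lay above each Mrps5 library. The spread among members of 1 subunit was thus far wider than that among libraries of 1 member.

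**Figure D1:**
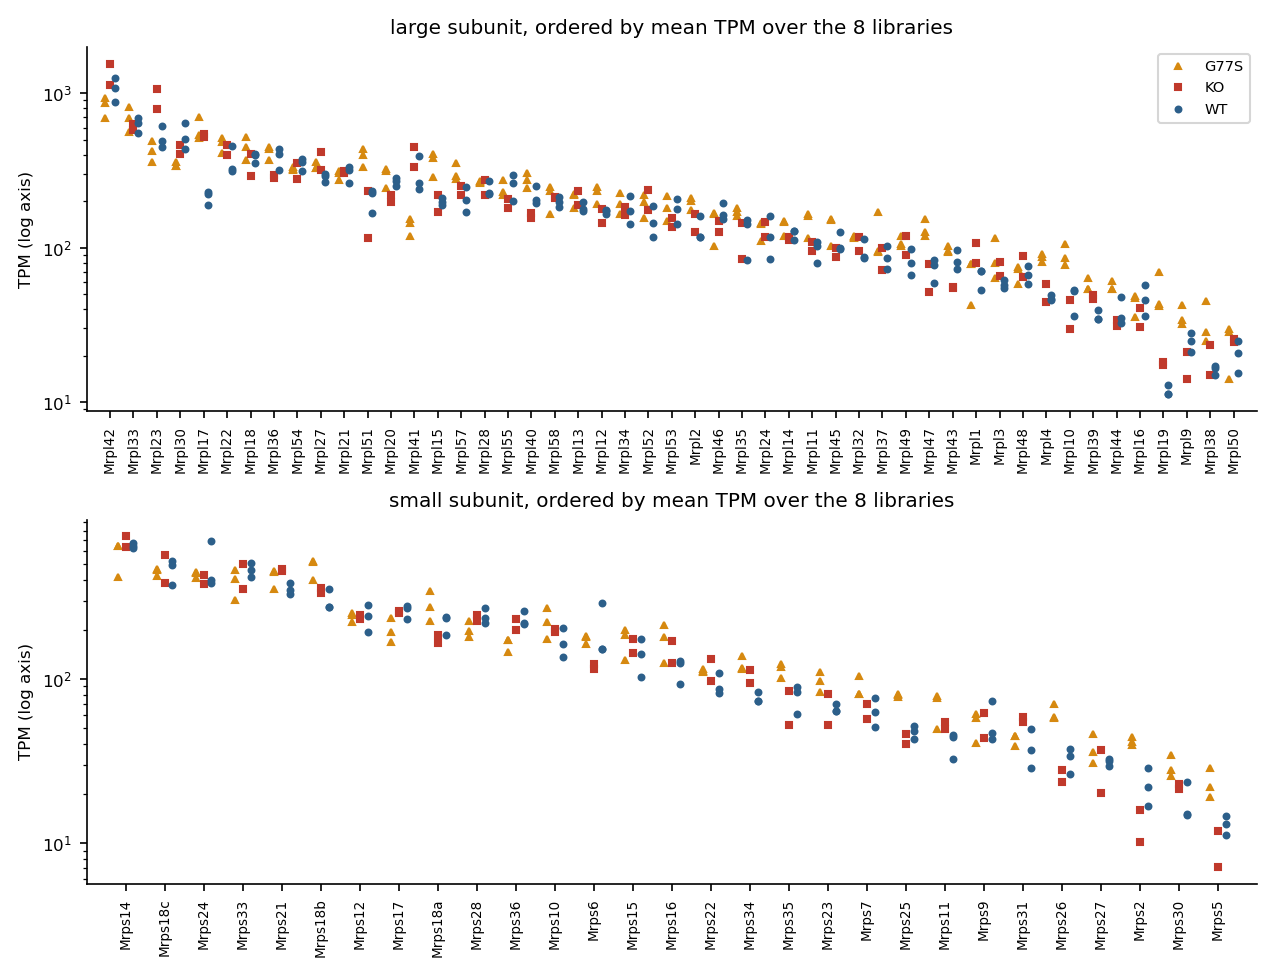
TPM of every member in every library (log axis), with large-subunit members in the upper panel and small-subunit members in the lower one, each ordered by mean TPM over the 8 libraries. Triangles are G77S, squares KO and circles WT libraries. The order runs from Mrpl42 (1050 TPM) to Mrpl50 (23.0 TPM) and from Mrps14 (629 TPM) to Mrps5 (16.0 TPM), and most members show libraries of the 3 genotypes close together.

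Summed over all large-subunit members, the level was 7552, 7896 and 8079 CPM in G77S, 8871 and 11026 CPM in KO, and 6787, 9271 and 8751 CPM in WT. The means were 7842 ± 268 CPM in G77S (SD, n = 3), 9948 ± 1524 CPM in KO (n = 2) and 8270 ± 1310 CPM in WT (n = 3), and the libraries of both G77S and KO overlapped those of WT. The small subunit summed to 3832, 3941 and 3989 CPM in G77S, 4339 and 5201 CPM in KO, and 3386, 4675 and 4332 CPM in WT. WT replicate 1 was the lowest of all libraries for both subunits. Per length, the sums were 9884, 11796 and 11338 TPM in G77S, 9963 and 11260 TPM in KO, and 9302, 10471 and 9538 TPM in WT for the large subunit. For the small subunit they were 4980, 5904 and 5763 TPM in G77S, 5083 and 5457 TPM in KO, and 5049, 5607 and 4970 TPM in WT. The ranges of all 3 genotypes overlapped on the TPM scale. On the CPM scale, the KO libraries lay above the G77S libraries for both subunits.

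**Figure D2:**
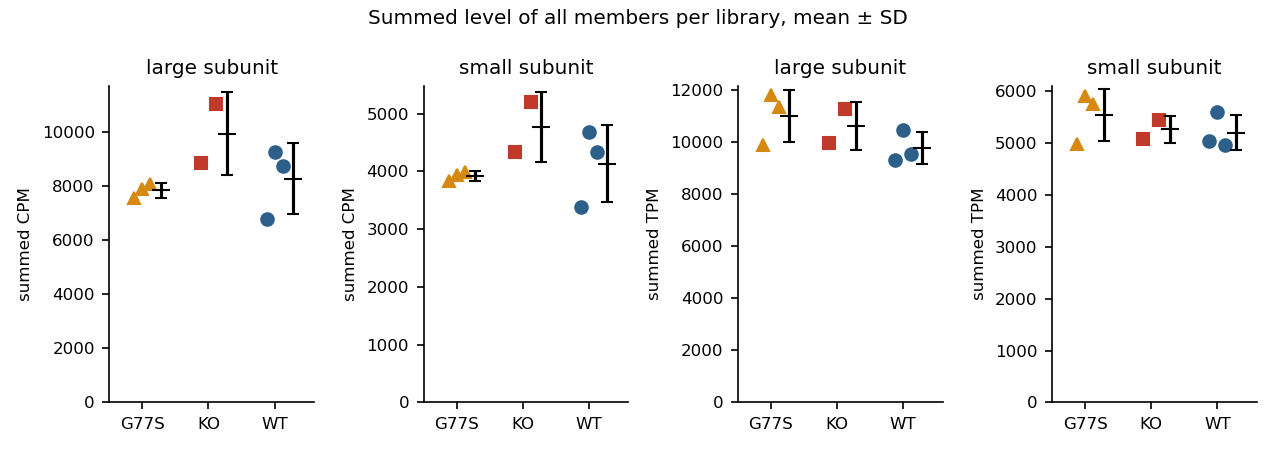
Summed CPM (2 left panels) and summed TPM (2 right panels) over all members of each subunit, per library, with mean ± SD. Triangles are G77S (n = 3), squares KO (n = 2) and circles WT libraries (n = 3). WT replicate 1 is the lowest point in CPM for both subunits (6787 and 3386), and on the TPM scale the genotypes overlap.

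The first comparison set embryos without Isca2 against wild type. Of 49 large-subunit members, Mrpl17 was the 1 that rose in KO, and 0 fell, beside 0.0788% of all tested genes called higher and 0.0430% called lower. Of 29 small-subunit members, 0 rose and 0 fell, while 2 had an unadjusted p under 0.05, as did 7 of the large subunit and 1819 of all 13953 genes. The members leaned upward by a small amount: 37 of 49 large-subunit and 24 of 29 small-subunit log2 fold changes were positive, with medians of 0.23 and 0.18, beside 46.5% positive and a median of -0.06 over all genes. The cytosolic ribosomal proteins had a median of 0.25. Without WT replicate 1 the 2 subunit medians were 0.05 and 0.03, and on the TPM scale they were 0.03 and -0.01, with -0.12 over all genes.

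Mrpl17, the homologue of bacterial L17 in the large subunit, stood at 300 and 340 CPM in KO against 85.5, 116 and 130 CPM in WT. Both KO libraries lay above all WT libraries by a wide gap. The means were 320 ± 28.2 CPM in KO (SD, n = 2) and 111 ± 23.0 CPM in WT (n = 3), and the log2 fold change was 1.53 (SE 0.24, edgeR adjusted p = 0.0451). Per length the levels were 525 and 548 TPM in KO against 189, 223 and 231 TPM in WT, again without overlap. The size was steady, 1.33 to 1.67 over 17 alternative settings, but the call passed in only 8 of the 17. Its adjusted p was 0.121 with the 2 genotypes alone, 0.0739 without KO replicate 1 and 0.236 without KO replicate 2. It was 0.120 without WT replicate 2, 0.0661 without WT replicate 3, and 0.0779, 0.0889 and 0.0686 without G77S replicates 1, 2 and 3, which enter through the shared estimate of spread.

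Among the other large-subunit members, the changes next in size missed the threshold. Mrpl23 had 366 and 615 CPM in KO against 190, 308 and 232 CPM in WT (a log2 difference of 1.01, SE 0.28, adjusted p = 0.174). Its KO libraries were both above WT, but their SD of log2 CPM was the highest of any large-subunit member in KO (0.53). Mrpl1, which forms the mobile stalk beside the site where spent tRNA leaves, had 285 and 371 CPM in KO against 182, 175 and 221 CPM in WT (0.77, SE 0.27, adjusted p = 0.256). Mrpl39, a mitochondrion-specific protein, had 122 and 150 CPM in KO against 74.8, 81.9 and 92.6 CPM in WT (0.71, SE 0.24, adjusted p = 0.239). In all, 15 large-subunit members had both KO libraries above the 3 WT libraries in CPM (30.6%, beside 13.1% of all tested genes) and 2 had both below (4.08%, beside 12.5%), those 2 being Mrpl43 and Mrpl46, named here after their values were seen. Of those 15, only Mrpl1, Mrpl3, Mrpl17, Mrpl19, Mrpl23, Mrpl27 and Mrpl39 also had both KO libraries above WT in TPM, and the others overlapped there.

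In the small subunit none of the differences passed the test. Mrps31, a mitochondrion-specific protein, had 98.3 and 116 CPM in KO against 70.3, 50.1 and 65.2 CPM in WT (a log2 difference of 0.79, SE 0.26, adjusted p = 0.23). Mrps34, another protein found in mitochondria only, had 104 and 99.1 CPM in KO against 60.7, 68.8 and 68.9 CPM in WT (0.62, SE 0.23, adjusted p = 0.297). For both genes the KO libraries lay above WT, and the exons of Mrps34 overlap Nme3 and Mapk8ip3. Mrps2, the homologue of bacterial S2, went the other way, with 41.5 and 29.0 CPM in KO against 45.6, 42.6 and 73.2 CPM in WT (-0.61, SE 0.32, adjusted p = 0.46). There were 4 small-subunit members with both KO libraries above WT in CPM (13.8%) and 3 with both below (10.3%), close to the shares over all genes.

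**Figure D3:**
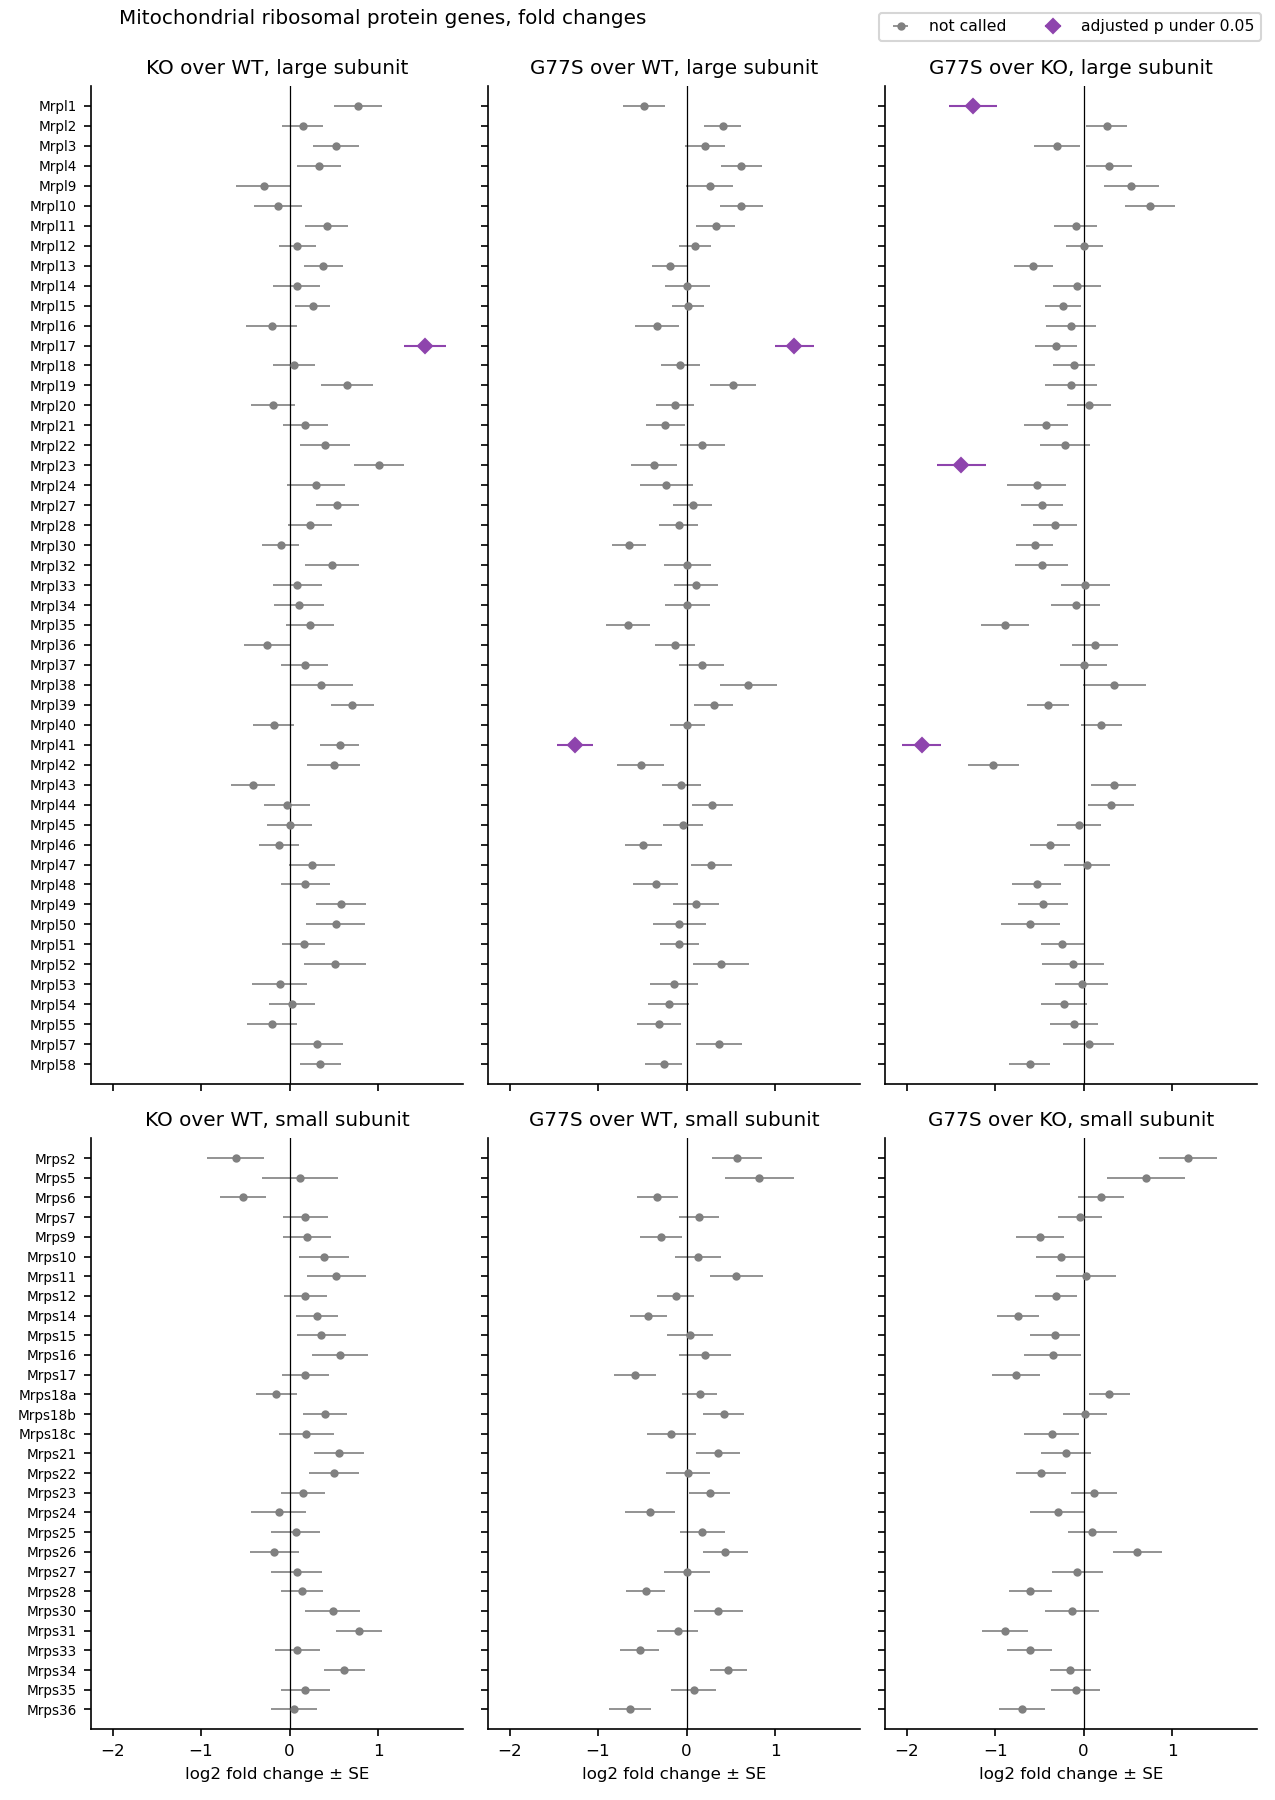
Log2 fold change ± SE (edgeR) of all 78 members for KO over WT, G77S over WT and G77S over KO, with the large subunit above and the small subunit below. Purple diamonds mark an adjusted p under 0.05: Mrpl17 for KO over WT, Mrpl17 and Mrpl41 for G77S over WT, and Mrpl1, Mrpl23 and Mrpl41 for G77S over KO, with 0 in the small subunit.

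The second comparison set homozygous G77S embryos against wild type, with the same WT libraries. In the large subunit Mrpl17 rose and Mrpl41 fell, 1 call in each direction among 49, beside 1.30% of all tested genes called higher and 2.09% called lower. In the small subunit 0 of 29 members rose or fell, with 4 at an unadjusted p under 0.05, beside 7 in the large subunit and 2797 genes in all. The medians were 0.01 for the large subunit and 0.08 for the small subunit, with 25 of 49 and 18 of 29 positive, beside 0.03 and 51.6% over all genes. Cytosolic ribosomal proteins had a median of 0.41. On the TPM scale, where library effects of transcript length enter, the subunit medians were 0.24 and 0.30 and that of all genes was 0.23. With a pseudocount of 1, limma then called 6 large-subunit members higher and 1 lower, and 4 small-subunit members higher and 0 lower, beside 8.44% of all tested genes called higher and 2.06% called lower.

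Mrpl17 stood at 262, 285 and 229 CPM in G77S against 85.5, 116 and 130 CPM in WT. Every G77S library was above every WT library, as in KO. The log2 fold change was 1.22 (SE 0.22, adjusted p = 0.0151), and it passed in 15 of 17 alternative settings, with an adjusted p of 0.0581 without G77S replicate 1 and 0.0787 without G77S replicate 2.

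Mrpl41, a mitochondrion-specific protein of the large subunit, showed the largest fall of any member against WT. Its levels were 77, 86.0 and 85.9 CPM in G77S against 226, 175 and 194 CPM in WT. The G77S libraries were close together and the highest of them lay well under the lowest WT library. The means were 82.9 ± 5.16 CPM in G77S and 198 ± 25.7 CPM in WT (SD, n = 3 each), and the log2 fold change was -1.26 (edgeR adjusted p = 0.00945, SE 0.20). Mrpl41 is a short gene whose deposited length stayed at 774 to 776 bases in all libraries, and per length it stood at 119, 154 and 145 TPM in G77S against 395, 240 and 263 TPM in WT. The call held in 16 of 17 alternative settings and missed without G77S replicate 2 (adjusted p = 0.0595).

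The other members next in size did not pass the test and had differences of either sign. Mrpl38, a mitochondrion-specific protein, had 35.6, 47.3 and 29.6 CPM in G77S against 18.4, 25.9 and 24.9 CPM in WT (a log2 difference of 0.70, SE 0.32, adjusted p = 0.258). Mrps5 had 18.8, 26.9 and 18.3 CPM in G77S against 10.4, 10.6 and 15.1 CPM in WT (0.82, SE 0.39, adjusted p = 0.266). Both were low members whose G77S libraries all lay above WT. Mrpl30, picked after its values were seen, came nearest to the threshold among members not called. It had 177, 137 and 151 CPM in G77S against 243, 256 and 232 CPM in WT (-0.65, SE 0.19, adjusted p = 0.0845). DESeq2 called it (-0.67, DESeq2 adjusted p = 0.0111). In TPM its G77S libraries (357, 338 and 340) also lay below WT (641, 504 and 438). Mrpl35, the homologue of bacterial L35, had 224, 209 and 207 CPM in G77S against 214, 413 and 384 CPM in WT (-0.66, SE 0.25, adjusted p = 0.169). Its sign depended on the scale: the log2 fold change was 0.48 in TPM (pseudocount 1, limma adjusted p = 0.277), and the deposited mean length of its transcripts was 1387 to 1457 bases in G77S against 2060 to 2517 bases in WT.

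Mrpl19, chosen after its values were seen, differed more between CPM and TPM, and the part of length in this was not tested. It had 43.1, 69.6 and 41.8 TPM in G77S against 11.2, 13.0 and 11.3 TPM in WT, a log2 fold change of 2.0 in TPM (limma adjusted p = 0.00276) but 0.52 in CPM, and its deposited length was 1570 to 1810 bases in G77S against 3547 to 3940 bases in WT. In the small subunit, Mrps2 had 82.2, 78.8 and 79.3 CPM in G77S against 45.6, 42.6 and 73.2 CPM in WT (0.57, SE 0.28, adjusted p = 0.293), and Mrps17, the homologue of bacterial S17, had 146, 109 and 162 CPM in G77S against 149, 241 and 232 CPM in WT (-0.58, SE 0.24, adjusted p = 0.217). Mrps2 libraries did not overlap, whereas those of Mrps17 did. In CPM, the G77S libraries lay entirely above WT for 7 large-subunit and 5 small-subunit members (14.3% and 17.2%, beside 17.2% of all tested genes), and entirely below for 5 and 4 (10.2% and 13.8%, beside 11.8%).

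The third comparison set G77S embryos against KO embryos. In the large subunit 3 of 49 members fell, Mrpl41, Mrpl23 and Mrpl1, and 0 rose, beside 2.43% of all tested genes called lower and 1.76% called higher. In the small subunit 0 of 29 rose or fell, with 7 at an unadjusted p under 0.05, beside 9 in the large subunit and 2895 genes in all. Medians were -0.14 for the large and -0.20 for the small subunit, with 14 of 49 and 9 of 29 positive, beside 0.10 and 53.7% over all genes, but in TPM the signs turned, to 0.26 and 0.21, with 0.34 over all genes at a pseudocount of 1. The balance of calls turned with the scale as well: in TPM at that pseudocount, limma called 8 large-subunit members higher and 2 lower (Mrpl23 and Mrpl41), and 4 small-subunit members higher and 0 lower, beside 11.1% of all tested genes called higher and 2.19% called lower. Less the median of all genes, the large and small medians were -0.24 and -0.30 in counts. They were -0.08 and -0.13 in TPM with a pseudocount of 1, and -0.33 and -0.38 with 0.1. The spread between libraries (SD of the subunit median) was 0.192 and 0.122 in log2 CPM. That spread was measured neither in TPM nor less the median of all genes, so it gives no error for these differences.

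Mrpl41 had 77, 86.0 and 85.9 CPM in G77S against 316 and 274 CPM in KO. The gap between the genotypes was several times the gap between libraries of either one. The log2 fold change was -1.83 (SE 0.22, adjusted p = 0.0029), the largest of any member in the 3 comparisons of counts, and the call held in all 17 alternative settings (-1.93 to -1.47). Between KO and WT the difference of Mrpl41 was 0.57 (SE 0.22, adjusted p = 0.299), with 316 and 274 CPM in KO against 226, 175 and 194 CPM in WT.

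Mrpl23 had 175, 175 and 216 CPM in G77S against 366 and 615 CPM in KO (a log2 difference of -1.38, SE 0.28, adjusted p = 0.0242). The G77S libraries were all lower, and the call held in 13 of 17 alternative settings. It missed without KO replicate 2 (-0.96, adjusted p = 0.193) and without G77S replicate 1, 2 or 3 (adjusted p = 0.0857, 0.10 and 0.0600). The deposited counts of Mrpl23 were fractional in all 8 libraries, since reads were shared with other features, and its processed pseudogene Mrpl23-ps1 stood at 2.8, 3.69 and 4.21 CPM in G77S, against 6.62 and 15.1 CPM in KO. Its value is therefore uncertain by the way such reads were split. Mrpl1 had 96.5, 152 and 164 CPM in G77S against 285 and 371 CPM in KO (-1.25, SE 0.27, adjusted p = 0.0286). Its groups did not overlap, and per length they still did not, with 42.5, 78.3 and 78.3 TPM in G77S against 79.1 and 107 TPM in KO. In TPM with a pseudocount of 1 the difference was -0.52 (limma adjusted p = 0.291). The call held in 9 of 17 settings and missed without KO replicate 1 or 2 (adjusted p = 0.0692 and 0.183) and without G77S replicate 1, 2 or 3 (adjusted p = 0.0716, 0.0822 and 0.0507).

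**Figure D4:**
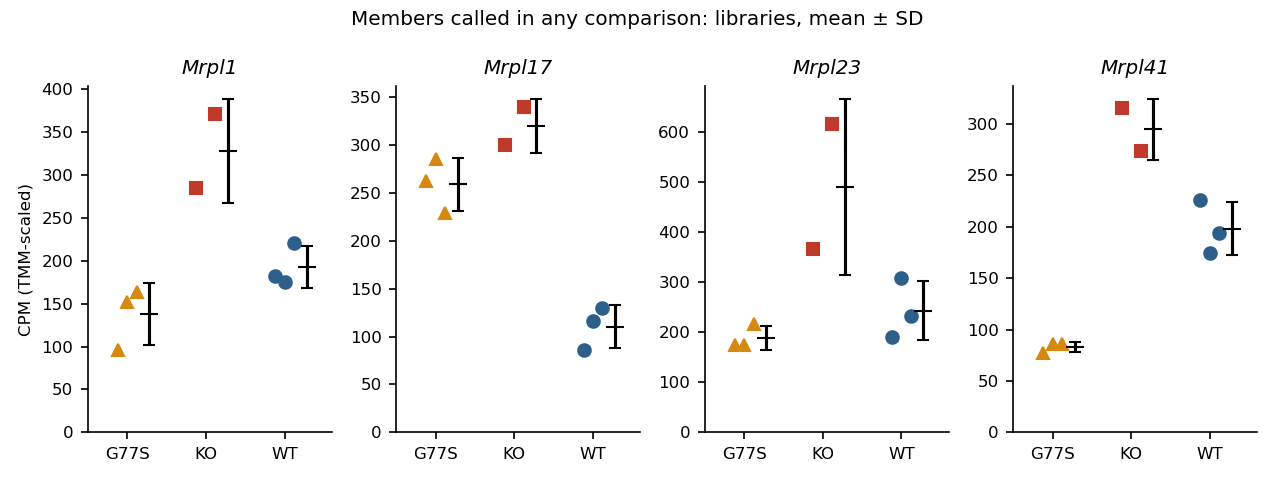
TMM-scaled CPM of the 4 members called in any comparison of the main edgeR fit, per library, with mean ± SD. Triangles are G77S (n = 3), squares KO (n = 2) and circles WT libraries (n = 3). Mrpl17 is high in G77S (229 to 285) and KO (300 and 340) and low in WT (85.5 to 130), whereas Mrpl41 is low in G77S alone (77 to 86.0).

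For Mrpl17, G77S and KO were set against each other directly: 262, 285 and 229 CPM in G77S against 300 and 340 CPM in KO gave -0.31 (SE 0.24, adjusted p = 0.509), and in TPM the sign turned (0.12). Members that came close to the threshold between G77S and KO were Mrpl42 (360, 389 and 443 CPM in G77S against 606 and 1000 CPM in KO, -1.02, adjusted p = 0.0814), Mrps31 (56.4, 56.7 and 60.5 CPM against 98.3 and 116 CPM, -0.89, adjusted p = 0.0816) and Mrps2 (82.2, 78.8 and 79.3 CPM against 41.5 and 29.0 CPM, 1.18, adjusted p = 0.0731). None of these groups overlapped. Mrpl35 had 224, 209 and 207 CPM in G77S against 368 and 424 CPM in KO (-0.89, adjusted p = 0.0979). In TPM its order was the other way round, with 171, 180 and 161 in G77S against 84.9 and 144 in KO. Its deposited length was 1387 to 1457 bases in G77S against 3261 and 2138 bases in KO, and the part of length was not tested. Mrps17 (-0.76, adjusted p = 0.147) and Mrps14 (-0.74, adjusted p = 0.108) were also lower in CPM in every G77S library than in KO, without passing the test. In CPM, every G77S library was below both KO libraries for 19 large-subunit and 12 small-subunit members (38.8% and 41.4%, beside 20.0% of all tested genes) and above both for 6 and 5 (12.2% and 17.2%, beside 24.9%). In TPM with a pseudocount of 1, however, 38 of 49 large-subunit and 20 of 29 small-subunit log2 fold changes were positive.

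The members were also split by family name. For KO over WT, the medians were 0.23 for the 30 large-subunit members with a bacterial homologue and 0.18 for the 19 specific to mitochondria, and 0.19 and 0.15 for the 16 and 13 of the small subunit. For G77S over WT they were 0.01 and -0.06 in the large subunit and -0.04 and 0.15 in the small subunit. For G77S over KO they were -0.14 and -0.22 in the large subunit and -0.30 and -0.09 in the small subunit. No difference between the classes was tested. Of the 4 called members, Mrpl1, Mrpl17 and Mrpl23 have bacterial homologues and Mrpl41 does not.

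Because ISCA2 acts in iron-sulfur cluster assembly, the 5 members that touch such clusters in human structures were read apart: Mrps6, Mrps16, Mrps18a, Mrps18c and Mrps25. In counts none of the 5 passed the test in any of the 3 comparisons, and their median log2 fold changes were 0.07 for KO over WT, 0.15 for G77S over WT and 0.10 for G77S over KO. Mrps16, the homologue of bacterial S16, had 104, 123 and 151 CPM in G77S, 131 and 190 CPM in KO, and 70.5, 132 and 123 CPM in WT (KO over WT 0.57, SE 0.32, adjusted p = 0.486). Mrps6, the homologue of bacterial S6, had 132, 113 and 109 CPM in G77S, 98.9 and 107 CPM in KO, and 190, 126 and 129 CPM in WT (KO over WT -0.53, SE 0.26, adjusted p = 0.418). These were the ends of the range, and the Mrps6 counts may include reads of Slc5a3 and Gm49711, whose exons overlap it on the same strand. Mrps25, a mitochondrion-specific neighbour of Mrps16 in the structure, had 65.8, 62.7 and 66.2 CPM in G77S, 55.3 and 65.5 CPM in KO, and 44.6, 61.6 and 66.3 CPM in WT. Its call depended on the scale. In TPM it stood at 78.0, 80.5 and 80.3 in G77S, 40.3 and 46.1 in KO, and 43.3, 48.3 and 51.7 in WT, and it passed there for G77S over WT (0.73 with a pseudocount of 1, limma adjusted p = 0.0446) and for G77S over KO (0.87, limma adjusted p = 0.0313). Mrps18c had 209, 195 and 211 CPM in G77S, 190 and 338 CPM in KO, and 151, 259 and 284 CPM in WT, and Mrps18a had 174, 228 and 194 CPM in G77S, 159 and 164 CPM in KO, and 165, 207 and 166 CPM in WT. Changes of RNA say nothing of the clusters in the proteins, which were not measured.

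Symbols and structure part company for 3 small-subunit names. In structures Mrps18a and Mrps30 belong to the large subunit, and the product of Mrps36 is now placed in the 2-oxoglutarate dehydrogenase complex rather than in the ribosome. Mrps30 had 95.3, 102 and 80.6 CPM in G77S, 93.8 and 109 CPM in KO, and 51.7, 64.2 and 101 CPM in WT, with overlap between all genotypes. Mrps36 had 95.5, 68.8 and 84.7 CPM in G77S, 132 and 136 CPM in KO, and 100, 153 and 136 CPM in WT. The G77S libraries of Mrps36 were the lowest (G77S over WT -0.64, SE 0.24, adjusted p = 0.16), without passing the test. Counting Mrps18a and Mrps30 with the large subunit and leaving out Mrps36 kept the number of calls in each subunit and comparison.

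The partners of the ribosome were read from lists of other ribosomal proteins, translation factors, assembly factors and mitochondrial transcription genes, and 0 genes of any of these lists passed the test in any comparison. Of the 5 ribosomal proteins with other symbols, Dap3, a GTP-binding protein of the small subunit, was picked with its values known. It had 213, 221 and 196 CPM in G77S, 367 and 352 CPM in KO, and 272, 221 and 242 CPM in WT (G77S over KO -0.78, adjusted p = 0.0567). In TPM, however, its G77S libraries (218, 257 and 217) overlapped its KO libraries (251 and 228). The medians of these 5 genes were 0.46 for KO over WT, 0.12 for G77S over WT and -0.31 for G77S over KO. Among 13 tested translation factors the medians were 0.01, -0.16 and -0.19 in the same order. Tufm, the elongation factor that brings aminoacyl-tRNA to the ribosome, was chosen after its values were seen. It had 54.7, 44.8 and 40.8 CPM in G77S, 23.0 and 17.3 CPM in KO, and 19.6, 27.5 and 23.4 CPM in WT, with every G77S library above all others (G77S over WT 0.99, adjusted p = 0.0933). Guf1, a back-translocation factor also chosen after its values were seen, had the lowest log2 fold change of this list for G77S over KO (-1.49, adjusted p = 0.0887).

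The 29 assembly factors had medians of 0.14 for KO over WT, 0.34 for G77S over WT and 0.15 for G77S over KO. Mettl17, an assembly factor that binds an iron-sulfur cluster in human cells, was chosen after its values were seen. It had 30.1, 24.2 and 38.3 CPM in G77S, 25.6 and 25.8 CPM in KO, and 45.7, 57.9 and 62.1 CPM in WT. In CPM all G77S and KO libraries lay below WT, with log2 fold changes of -0.84 for G77S over WT (adjusted p = 0.135) and -1.10 for KO over WT (adjusted p = 0.202) that did not pass. In TPM the G77S libraries (24.1, 17.4 and 41.7) overlapped WT (29.6, 44.5 and 33.7), and KO (13.7 and 11.2) stayed below. The 6 mitochondrial transcription and RNA genes had medians of 0.36, -0.13 and -0.56 in the 3 comparisons. The ribosomal RNAs themselves, reads of which depend on priming in a protocol for mRNA, were 472, 423 and 402 CPM in G77S, 617 and 1070 CPM in KO, and 495, 589 and 935 CPM in WT for mt-Rnr1 of the small subunit. For mt-Rnr2 of the large subunit they were 3020, 1740 and 1640 CPM in G77S, 2600 and 3390 CPM in KO, and 2540, 1400 and 3190 CPM in WT. Both overlapped between KO and WT (0.33 each, adjusted p = 0.721 and 0.765). For mt-Rnr1 every G77S library lay below all KO and WT libraries, with -0.64 for G77S over WT (adjusted p = 0.225) and -0.97 for G77S over KO (adjusted p = 0.107). For mt-Rnr2 the values were -0.16 (adjusted p = 0.841) and -0.49 (adjusted p = 0.472).

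Libraries of 1 genotype scattered as follows. The median SD of log2 CPM over members was 0.16 in G77S, 0.23 in KO and 0.27 in WT for the large subunit, and 0.17 in G77S, 0.19 in KO and 0.33 in WT for the small subunit. The widest members were Mrpl50 in G77S (0.50), Mrpl23 in KO (0.53) and Mrpl24 in WT (0.63) in the large subunit (Mrpl24 was picked for this value), and Mrps5 in G77S (0.31) and KO (0.59) and Mrps24 in WT (0.60) in the small subunit. Mrps24 shares exons with Urgcp. Deposited counts were whole numbers in every library for 56 members, in no library for 9 and in some for 13, and fractional counts mark reads that were split between features.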

How the data were processed

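RNA was measured in 8 libraries of mouse blastocysts. The authors deposited 1 gene table per library, not pooled, with expected counts (estimated counts, in which reads that match several features are split), TPM, FPKM and lengths, per the file headers. The authors' deposited TPM values sum to a fixed total in every library. Per the submitters' processing notes, the build was mm10 (GRCm38), and the tools were RSEM 1.3.1, STAR 2.6.1c, DESeq2 1.42.1 and Trim Galore 0.4.5. The annotation release is not given in the sources used here. FPKM was not used.

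A GENCODE annotation of GRCm38 gave symbols and 1-based positions for 55230 of 55471 identifiers (99.6%), and RefSeq on GRCm38.p6 gave promoters. The members, lists and tests were chosen with earlier results of these data known. Rounded expected counts were tested in R 4.3.3 with edgeR 4.0.16, using TMM scaling, its low-count filter by genotype, 1 model with a mean per genotype over all 8 libraries, quasi-likelihood F tests adjusted by Benjamini-Hochberg over all 13953 genes, with calls at an adjusted p under 0.05. Where no other tool is named, an adjusted p is from edgeR. The common biological coefficient of variation was 0.65. An SE is the size of a log2 fold change divided by the square root of F. Each library held between 10323965 and 23842619 counts, so that 3 counts equal 0.139 to 0.298 CPM. The reads carry no molecular identifiers here, so depth covers counting error only.

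Named genes were Isca2, every called member, the 4 members of each subunit with the largest change in each comparison and at least 10 CPM, the 3 highest and 2 lowest per subunit by TPM, the 5 iron-sulfur contacts, Mrps30, Mrps36 and the mitochondrial ribosomal RNAs. Called genes of other lists were also named. Alternatives were RLE scaling, no filter, 5 CPM in 2 libraries, a replicate block, only the 2 genotypes compared, limma 3.58.1 on log2(TPM + 1) and log2(TPM + 0.1), DESeq2 1.42.0, a length and GC trend removed, other subunit assignments, and each library left out. The calculations were tested on simulated data.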

Additional observations from a re-analysis of the deposited data

How the results depend on the processing

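The median log2 fold changes of the 2 subunits kept their direction and moved by less than the replicate spread under RLE scaling, no filter, 5 CPM in 2 libraries, the 2 genotypes alone, DESeq2, the replicate block and other subunit assignments, except that the large-subunit median for G77S over WT lay between -0.01 and 0.04. In TPM, with a pseudocount of 1 or of 0.1, the large and small medians were 0.03 and -0.01 for KO over WT, 0.24 and 0.30 for G77S over WT, and 0.26 and 0.21 for G77S over KO. With the length and GC trend removed they were -0.09 and -0.02 for G77S over WT. With 1 library left out, the large-subunit median ran from 0.05 to 0.35 for KO over WT, from -0.12 to 0.09 for G77S over WT and from -0.26 to -0.08 for G77S over KO, and the small-subunit median from 0.03 to 0.30, from -0.04 to 0.22 and from -0.27 to -0.13. The lowest values against WT were those without WT replicate 1.

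Calls depended more on the setting. For KO over WT, DESeq2 called 3 large-subunit and 2 small-subunit members, no filter called 2 large-subunit members, and the 2 genotypes alone and the replicate block called 0. For G77S over WT, TPM called 7 large (6 higher, 1 lower) and 4 small members (all higher) with a pseudocount of 1, and 6 (5 higher, 1 lower) and 3 (all higher) with 0.1. For G77S over KO, where counts gave 0 higher and 3 lower, TPM with a pseudocount of 1 called 10 large (8 higher, 2 lower) and 4 small members (all higher), and with 0.1 it called 9 (7 higher, 2 lower) and 4 (all higher). DESeq2 called 7 large (all lower) and 3 small members (1 higher, 2 lower), no filter and the 2 genotypes alone 5 (all lower) and 1 (higher) each, and 5 CPM in 2 libraries 3 (all lower) and 1 (higher). With 1 library left out, large-subunit calls ran from 0 to 1 for KO over WT, from 0 to 3 for G77S over WT and from 1 to 5 for G77S over KO, and small-subunit calls stayed at 0. Over all genes, TPM with a pseudocount of 1 called 1178 higher and 288 lower for G77S over WT against 182 and 291 in counts, and 1543 and 306 for G77S over KO against 246 and 339. For KO over WT, DESeq2 called 356 higher and 422 lower against 11 and 6. The cause of these differences was not tested.

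Among the fold changes followed through every setting, signs turned for Mrpl17 between G77S and KO and for Mrpl35 between G77S and WT. Mrpl17 went from -0.31 to 0.06 with the length and GC trend removed and to 0.12 in TPM with either pseudocount. Mrpl35 had 0.48 and 0.49 in TPM with pseudocounts of 1 and 0.1. Some other printed fold changes, such as that of Mrpl35 between G77S and KO, were not followed in this way. That difference was -0.89 in counts, but mean TPM was 171 in G77S and 115 in KO. For mt-Rnr2, -0.16 in counts for G77S over WT stood beside mean TPM of 1490 in G77S and 1390 in WT. Between G77S and KO, 3 members picked after their values were seen turned sign and passed in TPM with a pseudocount of 1: Mrpl51 (-0.24 in counts, 1.23 in TPM, limma adjusted p = 0.0206), Mrpl15 (-0.23, 0.86, adjusted p = 0.0264) and Mrpl19 (-0.14, 1.44, adjusted p = 0.0151).

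Replicate numbers are shared by the genotypes, and same-numbered libraries had correlations of -0.021 to 0.071 after each genotype mean was removed. Because KO has 2 libraries, that step makes their deviations exact opposites, as in 0.071 and -0.071 with WT replicate 1. Such correlations cannot decide whether the numbers pair the libraries. With the replicate block, KO over WT had 0 large-subunit calls in place of 1, G77S over WT 2 and G77S over KO 4 in place of 3, and the small subunit 0 in each.

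Limits are the 2 KO libraries, the unknown number of embryos per library, the shorter fragments of all G77S libraries, and counts split between members and their pseudogenes or overlapping genes.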
